A study of Homo sapiens with 49 samples.

Results

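The comparison was between cells exposed to doxorubicin at 2.5 µg/mL for 48 h and untreated cells of the same line at the same time, in RIVA and U2932. These are the 2 lines that had both arrays, out of 6 lines, so that 4 of the 49 arrays were compared. The arrays were chosen by the dose, time and line in their labels, and no measured value entered the choice. RIVA and U2932 are established lines from diffuse large B-cell lymphoma, a tumour of mature B cells, and both are commonly classed as of the activated B-cell type. All groups grew as cultures in RPMI 1640 with fetal bovine serum, penicillin and streptomycin, with no other agent or genetic change given in the labels. The study used no drug, a low (0.00061 µg/mL) or a high (2.5 µg/mL) dose for 2, 12 or 48 h, and the arrays analysed here hold 3 lines untreated at 48 h and 2 at the high dose. Its title sets out to compare responses by dose, time and sensitivity of the line. No dose and time of a line had more than 1 array, and a clone or passage was not given in the sources used here. Total RNA was measured, so that fewer cells of a kind and less RNA per cell cannot be told apart.

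Doxorubicin is an anthracycline that slips between DNA bases and traps topoisomerase II on cut DNA, which leaves double-strand breaks. It also displaces histones and hinders transcription. In B-cell lymphoma it is a main component of first-line chemotherapy, and cells can answer with cell cycle arrest, death, stress signalling through AP-1 factors, or an interferon response to nucleic acids in the cytoplasm.

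Messenger RNA was read on Affymetrix arrays as RMA log2 intensities, in which 1 unit is a doubling. A bracket with 2 values gives the log2 difference in RIVA, then in U2932. In all, 19775 genes were tested. Each gene has 1 probe set here, and a level says nothing about 1 gene against another. The B-cell markers were all above the median gene's level of 5.83 in the 4 arrays, with 6 markers measured and a lowest value of 7.07. Markers of other cell types were mostly below that level in untreated cells. In treated RIVA cells 2 of 6 epithelial and 1 of 3 erythroid markers were below it. In each of the T cell, myeloid, erythroid, fibroblast and epithelial lists 1 gene rose in both lines: CD3D (1.27 and 1.54), CD14 (4.82 and 1.91), KLF1 (1.94 and 1.50), FAP (4.45 and 1.51) and KRT8 (1.49 and 1.15). EPCAM, also in the epithelial list, went the other way (-2.67 and -0.22). It was bright in untreated cells, at 8.63 in RIVA and 9.76 in U2932. The median marker of these 5 lists lay between 3.54 and 4.86 in the untreated arrays and between 3.90 and 6.05 in the treated ones. The poly-A spike-in controls, bacterial RNAs added before labelling, read 3.46 higher after treatment in RIVA and 3.02 higher in U2932. The hybridization controls, added after it, read 1.92 and 0.99 higher. On a scale fixed to either control, each gene's difference is lower by that amount, so that a rise smaller than it lies below 0. All differences here are on the deposited scale, where the median gene differed by 0.23 in RIVA and 0.10 in U2932. The ACTB probe sets for the 3′ and 5′ ends differed by 3.08 in treated and 2.04 in untreated RIVA cells, against at most 2.71 in the 36 arrays without the high dose, and by 0.59 and 0.20 in U2932. The part of the controls or of the 3′ signal in the results was not tested.

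The first question was how far both lines answered alike. In both lines 18 of 29 B-lineage and B-cell receptor genes, 13 of 34 mitotic genes and 9 of 19 sterol synthesis genes fell, while 25 of 42 histone genes and 12 of 28 AP-1 and immediate early genes rose. RIVA had more genes called, and 27 of 28 interferon-response genes differed between the lines. A line's own difference was called at a limma adjusted p below 0.05 and a change of at least 2-fold, with an error from the spread of 30 arrays without the high dose (median SE 0.21). By this rule RIVA had 3057 genes higher (15.5% of those tested) and 4183 lower (21.2%), and U2932 had 1605 higher (8.12%) and 2352 lower (11.9%). The SD over genes of the difference was 1.40 in RIVA and 0.89 in U2932. Both lines were called in the same direction for 1032 higher genes (5.22%) and 1916 lower genes (9.69%). Over all genes the differences of the 2 lines had a Pearson correlation of 0.71, given as a description since genes of 1 array are not independent. Of the agreeing genes, 304 of the rises and 819 of the falls also differed in size between lines, and RIVA had the larger change in 273 and 810 of them. A difference between lines of at least 2-fold was called for 4635 genes (23.4%).

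A fit on the mean of both lines, with the line as a block, called 1119 genes higher (5.66%) and 1638 lower (8.28%), of which 765 and 1420 were also agreeing genes. With 2 pairs an exact two-sided sign-flip test cannot go below p = 0.5, so that these calls rest on variance borrowed across genes. Without the trend of variance on level, limma called 9 genes higher and 0 lower (2180 and 3227 at an unadjusted p below 0.05), and without the block it called 0 and 0 (1597 and 1491). The other error, from the arrays without the high dose, does not measure the spread between repeated high-dose cultures. The split of calls moved with the scale. With arrays scaled to the poly-A controls, agreeing genes were 21 higher and 19126 lower, RIVA calls 91 and 19307, U2932 calls 47 and 19422, and calls on the mean 27 and 19237. With arrays scaled to the hybridization controls the agreeing genes were 141 and 7925, RIVA calls 329 and 16277, U2932 calls 363 and 8302, and calls on the mean 115 and 5294. With arrays centred on their medians U2932 had 1170 higher and 2972 lower.

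**Figure D1:**
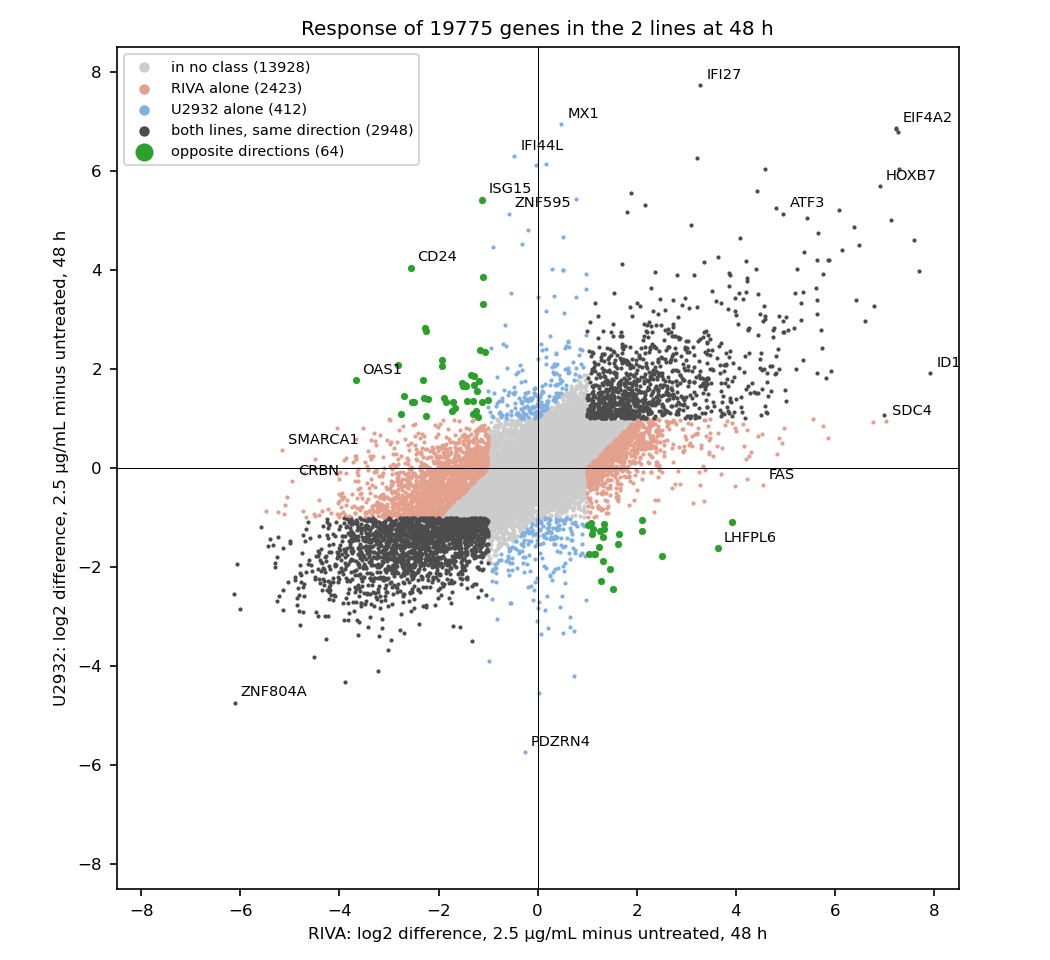
Each point is 1 of 19775 genes, with its log2 difference between 2.5 µg/mL and untreated cells at 48 h in RIVA (x axis) and U2932 (y axis), coloured by class: 2948 agreeing, 64 opposite, 2423 called in RIVA alone with a called difference between lines, 412 likewise in U2932 alone. Most large changes share a direction, while MX1, IFI44L and ISG15 stand high on the U2932 axis alone; values are on the deposited scale, and on the poly-A scale all shift down by 3.46 (RIVA) and 3.02 (U2932).

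Some of the largest rises shared by both lines were of genes at low level in untreated cells, where an array reads mostly background, so that their fitted differences depend on that background. Others, such as ATF3 and HOXB7, started at or above the level of the median gene in 1 or both lines. SERPINB5, which encodes the serpin maspin, went from 3.18 to 10.46 in RIVA and from 3.27 to 10.05 in U2932. Its mean difference was 7.03 ± 0.50 (SE, n = 2 lines, limma adjusted p = 4.51e-05). SCARNA2, a small RNA of the Cajal body that guides the modification of spliceosomal RNAs, went from 3.63 to 10.87 in RIVA and from 3.96 to 10.79 in U2932. Both genes were low in the untreated arrays and high in the treated ones, with no overlap and nearly the same size in each line. The labelling kit starts from poly-A tails, so that for SCARNA2 the arrays read RNA with a tail. A form without a tail was not measured. The probe set with the single gene EIF4A2 (a translation initiation helicase) went from 3.05 to 10.29 in RIVA and from 3.70 to 10.56 in U2932. That rise belongs to this probe set and not to the gene as a whole. Another probe set, whose annotation also lists small nucleolar RNAs of the locus, was high throughout, from 12.64 to 13.11 in RIVA and from 13.44 to 13.07 in U2932. A further one of that kind went from 5.02 to 3.68 and from 9.20 to 7.93.

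A few developmental transcription factors were among the largest rises. HOXB7, a homeobox factor of body patterning, went from 6.39 to 13.30 in RIVA and from 5.23 to 10.92 in U2932, a mean difference of 6.30 ± 0.55 (SE, n = 2 lines, limma adjusted p = 0.000117). DLX2, a homeobox factor of brain and jaw development, rose by 6.09 and 5.21 in RIVA and U2932, and the orphan nuclear receptor NR2F1 by 7.30 and 6.04. Of 92 homeobox genes measured, 8 rose in both lines (8.7%, against 5.22% of all genes) and 0 fell in both. The list's median difference was 0.82 in RIVA and 0.40 in U2932. HOXC6 (4.75 and 2.79), HOXC5 (3.24 and 2.56) and SIX5 (3.71 and 1.55) were in this group. In the whole list 32 genes were called higher in RIVA and 12 in U2932, beside 15.5% and 8.12% of all genes.

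Some surface proteins were among the largest rises, while others named further on fell. ULBP2, a stress ligand of the NK-cell receptor NKG2D, went from 4.25 to 11.39 in RIVA and from 4.66 to 9.66 in U2932. TNFRSF10D, a decoy receptor for TRAIL, went from 6.93 to 12.38 in RIVA and from 5.87 to 10.92 in U2932. ULBP2 was the 1 agreeing gene of 6 NKG2D ligands, and its rise was larger in RIVA by 2.14 ± 0.47 (SE; limma adjusted p = 0.000484). GJB2, a gap junction protein, rose by 6.39 and 4.87. The Notch pathway had 7 of 21 members higher in both lines (33.3%, against 5.22% of all genes) and 2 lower (9.52%, against 9.69%), with a median of 1.12 in RIVA and 0.69 in U2932. Its ligands DLL1 (4.21 and 4.18) and JAG1 (3.52 and 3.58) rose in both lines by amounts that the test did not tell apart. The targets HEY1 (6.49 and 4.51), NRARP (3.80 and 2.08) and HES1 (3.87 and 1.11) rose more in RIVA, HES1 by 2.76 ± 0.40 (SE; limma adjusted p = 1.44e-06). DTX1 (-3.10 and -1.43) and MAML1 (-1.47 and -1.13), a modulator and a coactivator of the same pathway, fell.

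AP-1 and immediate early genes, which encode fast stress-responsive transcription factors, were higher in both lines for 12 of 28 members (42.9%, against 5.22% of all genes) and lower for 1 (3.57%, against 9.69%). ATF3 went from 7.46 to 12.42 in RIVA and from 6.34 to 11.47 in U2932, a mean difference of 5.05 ± 0.50 (SE, n = 2 lines, limma adjusted p = 0.000286). JUN went from 5.61 to 11.39 in RIVA and from 5.72 to 9.64 in U2932, and FOSB from 4.82 to 12.53 in RIVA and from 4.98 to 8.95 in U2932. All treated arrays were far above the untreated ones for these 3 factors, and the FOSB rise was larger in RIVA by 3.73 ± 0.36 (SE; limma adjusted p = 6.85e-10). MAFF (3.98 and 3.44), NR4A2 (4.95 and 2.97), FOS (3.51 and 1.16) and DUSP1 (2.14 and 1.84), a phosphatase that turns off MAP kinases, rose in both. Of the 12 members whose size differed between lines, 11 were higher in RIVA, beside 1760 of 4635 over all genes. JUND fell in RIVA (-3.19, against -0.79 in U2932), and DUSP2 fell in both (-1.01 and -1.91). The list's median was 1.97 in RIVA and 0.94 in U2932.

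Replication-dependent histone genes, whose messengers are normally made in S phase, formed the group with the largest share of agreeing rises among the lists. Of 42 measured, 25 rose in both lines (59.5%, against 5.22% of all genes) and 0 fell, with a median of 1.65 in RIVA and 1.82 in U2932 beside 0.23 and 0.10 over all genes. H2AC8 went from 5.70 to 10.51 in RIVA and from 5.53 to 10.77 in U2932. H3C2 went from 5.04 to 10.70 in RIVA and from 3.68 to 8.42 in U2932. The treated arrays of both lines were above the untreated ones by a similar amount. H2BC21 (4.09 and 4.64) and H2BC4 (4.20 and 3.56) rose likewise, while H3C1 rose more in RIVA (4.21 and 1.59) and H2AC25 in U2932 alone (0.54 and 3.13). These genes form clusters of near-identical copies, so that reads of one copy by another's probe set cannot be told apart. SLBP, the protein that binds the stem-loop of these messengers, fell (-1.85 and -1.20). Messengers of these genes normally end in a stem-loop without a poly-A tail, and the labelling kit starts from poly-A tails, so that the arrays read the tailed form. The list's medians lie below the rise of the poly-A controls.

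Single members of other lists rose in both lines. GPX1, which removes peroxides, rose by 2.35 and 2.44, NQO1, a quinone reductase, by 1.70 and 2.44 and the metallothionein MT1X by 2.51 and 1.63, while SLC7A11, the cystine importer, fell (-3.39 and -2.13). In that list of 20, 5 rose (25%, against 5.22% of all genes) and 2 fell (10%, against 9.69%) in both lines. HEXIM1, the inhibitor of the elongation kinase P-TEFb, went from 7.76 to 12.25 in RIVA and from 7.41 to 10.52 in U2932. The RNA polymerase II subunit POLR2A rose by 4.00 and 1.40 and the kinase CDK12 fell (-3.06 and -2.36). Of 29 elongation and polymerase genes, 3 rose (10.3%, against 5.22%) and 1 fell (3.45%, against 9.69%) in both lines. RIVA had 4 called higher and 11 lower, beside 15.5% and 21.2% of all genes. Of 15 genes of MHC class I display, a list added after the values were seen, 6 rose in both (40%, against 5.22%). In RIVA alone 4 fell, beside 7.58% of all genes. The rises included the peptide transporter subunits TAP1 (2.87 and 1.88) and TAP2 (1.58 and 1.31), TAPBP (1.94 and 1.30) and HLA-B (1.83 and 1.10). GADD45B, a stress-induced partner of MAP kinase signalling, went from 6.69 to 13.49 in RIVA and from 9.54 to 12.81 in U2932. ID1, an inhibitor of basic helix-loop-helix factors, rose by 7.92 in RIVA and 1.92 in U2932.

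**Figure D2:**
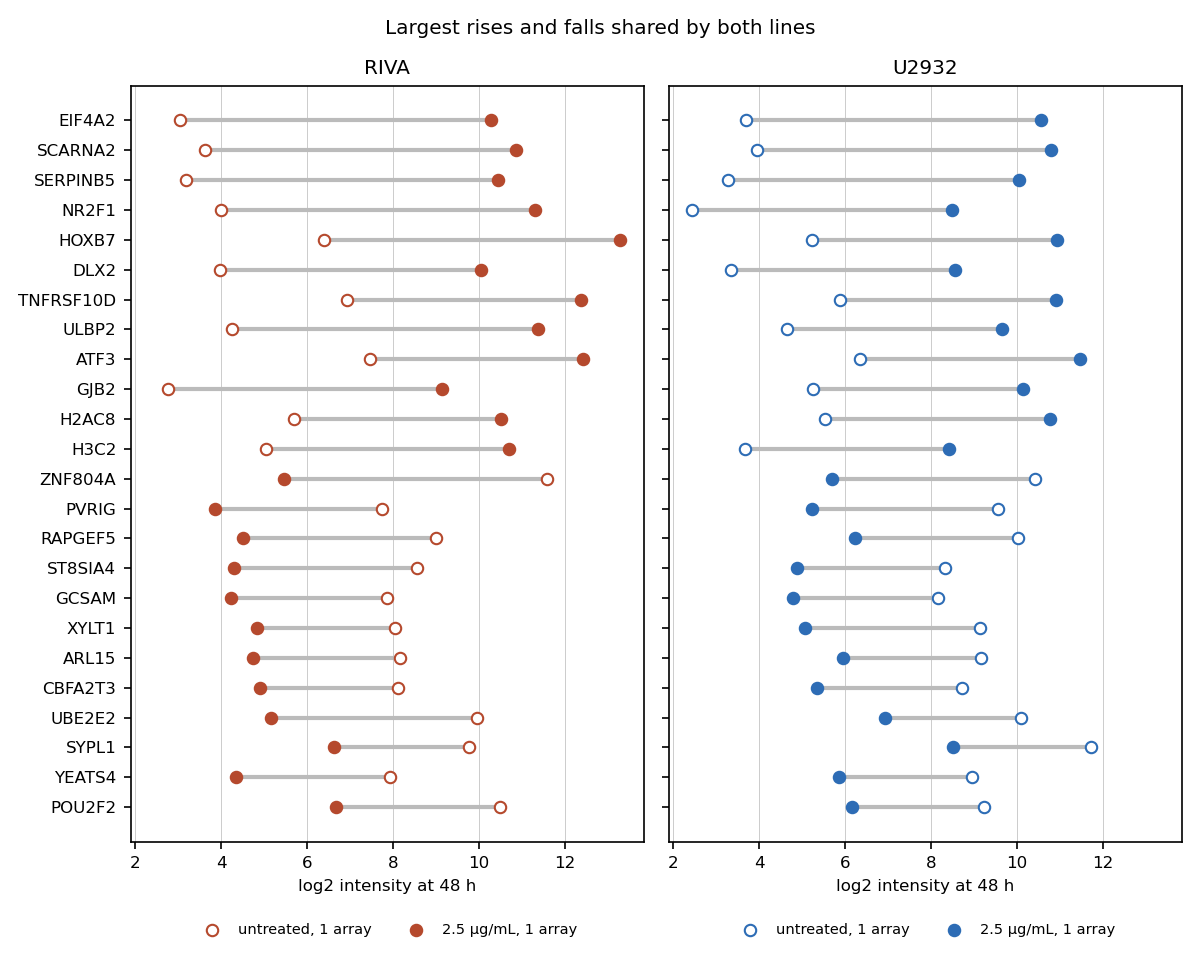
Log2 intensity in each of the 4 arrays (x axis) for the 12 largest agreeing rises and the 12 largest agreeing falls, ranked by the smaller of the 2 lines' differences; open circles are untreated, filled circles are 2.5 µg/mL, and each circle is 1 array. EIF4A2, SCARNA2 and SERPINB5 rise from below 4 to above 10 in both lines and ZNF804A falls from above 10 to below 6, on the deposited scale; on the poly-A scale all differences are lower by 3.46 and 3.02.

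The agreeing falls included many genes of B-cell identity and signalling. ZNF804A, a zinc finger gene, went from 11.58 to 5.46 in RIVA and from 10.43 to 5.69 in U2932, with a mean difference of -5.43 ± 0.57 (SE, n = 2 lines, limma adjusted p = 0.00037). GCSAM, a germinal centre signalling adaptor, went from 7.86 to 4.24 in RIVA and from 8.15 to 4.78 in U2932. The Oct-2 gene POU2F2, an activator of immunoglobulin transcription, went from 10.50 to 6.67 in RIVA and from 9.22 to 6.15 in U2932. In each case both untreated arrays were above both treated ones. The inhibitory receptor PVRIG (-3.88 and -4.33), RAPGEF5 (-4.52 and -3.81), the sialyltransferase ST8SIA4 (-4.27 and -3.46), XYLT1 (-3.22 and -4.09), the corepressor CBFA2T3 (-3.19 and -3.39), ARL15 (-3.43 and -3.21), UBE2E2 (-4.80 and -3.17), SYPL1 (-3.13 and -3.22) and YEATS4 (-3.60 and -3.10) completed the 12 largest falls. Of these 12 genes 6 had several probe sets, and all of them shared the sign in both lines for 2.

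B-lineage factors and B-cell receptor genes had 18 of 29 members lower in both lines (62.1%, against 9.69% of all genes) and 0 higher, with a median of -2.47 in RIVA and -1.58 in U2932. CD79B, a signalling chain of the receptor, went from 11.90 to 7.07 in RIVA and from 10.72 to 8.30 in U2932. CD79A, its partner chain, read 0.42 in RIVA and 0.68 in U2932 and was not called in both lines, so that the 2 chains parted. Among lineage factors, BACH2 (-4.78 and -2.17), SPIB (-3.93 and -2.72), EBF1 (-3.83 and -2.72), POU2AF1 (-3.63 and -1.92), FOXO1 (-2.95 and -1.34) and IKZF3 (-2.44 and -1.74) fell in both, whereas PAX5 (-0.80 and -1.14) fell short of 2-fold in RIVA. The kinases and adaptors below the receptor fell together: BLNK (-4.22 and -2.64), SYK (-3.22 and -1.78), LYN (-2.69 and -1.61), BTK (-2.48 and -1.79) and PLCG2 (-2.41 and -1.53). Among surface proteins CD22 (-2.47 and -1.70) and CD72 (-2.71 and -1.34) fell, while MS4A1, the CD20 gene, went from 13.24 to 11.93 in RIVA and from 13.71 to 12.83 in U2932 and was not called 2-fold in U2932. All 12 members that differed between lines were lower in RIVA, beside 2875 of 4635 differing genes over all genes tested.

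Genes of the activated B-cell and plasma cell list fell in both lines in 7 of 24 cases (29.2%, against 9.69% of all genes) and rose in 1 (4.17%, against 5.22%). TNFRSF17, the receptor BCMA, went from 10.97 to 6.79 in RIVA and from 12.95 to 10.65 in U2932. SDC1, the plasma cell marker CD138, was the 1 that rose (3.40 and 1.38). IRF4, a survival factor of the activated type, read -1.01 in RIVA and -1.09 in U2932, and PRDM1, the plasma cell master regulator, 0.73 in RIVA and 0.30 in U2932; neither met the rule in both lines. BCL6 read -0.18 in RIVA and -1.07 in U2932. Germinal centre markers fell in 5 of 14 cases (35.7%, against 9.69%), KLHL6 (-3.62 and -1.93) and STAP1 (-3.03 and -2.49) among them.

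G2 and mitosis genes were lower in both lines for 13 of 34 members (38.2%, against 9.69% of all genes) and higher for 0, with a median of -1.46 in RIVA and -0.93 in U2932. The spindle motor KIF11 went from 10.27 to 5.85 in RIVA and from 8.81 to 7.02 in U2932, and the checkpoint kinase BUB1B from 12.05 to 7.42 in RIVA and from 11.45 to 9.52 in U2932. Both fell more in RIVA, and RIVA minus U2932 was -2.64 ± 0.25 (SE; limma adjusted p = 5.16e-10) for KIF11. CCNB1, cyclin B1, went from 10.58 to 7.90 in RIVA and from 11.27 to 9.69 in U2932, while its partner CDK1 read -0.12 in RIVA and -0.45 in U2932 and met the rule in neither. CENPE (-4.31 and -2.37), ECT2 (-3.69 and -2.49), ANLN (-3.28 and -2.53) and AURKB (-3.29 and -1.14) fell, but CDC20 (1.43 and -0.41) and AURKA (1.03 and -0.23) were higher in RIVA alone. Replication genes were called lower in RIVA for 15 of 31 and in U2932 for 3, beside 21.2% and 11.9% of all genes, for example CDC6 (-3.12 and -0.52), the licensing factor.

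DNA damage and repair genes fell in both lines for 7 of 26 (26.9%, against 9.69% of all genes) and rose for 0, with RAD50 (-4.01 and -2.10), a sensor of double-strand breaks, CHEK2 (-2.90 and -1.68), the checkpoint kinase, and TDP1 (-3.24 and -2.11), which removes stalled topoisomerase from DNA, among them. Of the drug's targets, TOP2B fell and went from 11.97 to 9.30 in RIVA and from 11.86 to 10.39 in U2932, and TOP2A from 12.04 to 10.26 in RIVA and from 11.96 to 11.23 in U2932, where U2932 missed the rule. Sterol synthesis genes fell for 9 of 19 (47.4%), with SQLE (-3.36 and -1.89), HMGCS1 (-2.78 and -1.46) and MSMO1 (-3.08 and -1.27), all enzymes of the pathway. Proteasome subunits fell for 8 of 27 (29.6%), with a median of -1.31 in RIVA and -0.72 in U2932, led by the deubiquitinase subunit PSMD14 (-2.69 and -2.07). Splicing genes fell for 7 of 29 (24.1%), among them the kinase PRP4K (-6.07 and -1.95) and SRSF3 (-3.52 and -1.79). Of 60 ribosomal protein genes 1 fell in both lines (1.67%, below the 9.69% of all genes), RPL39L (-1.86 and -1.26), and the median was -0.09 in RIVA and 0.09 in U2932.

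**Figure D3:**
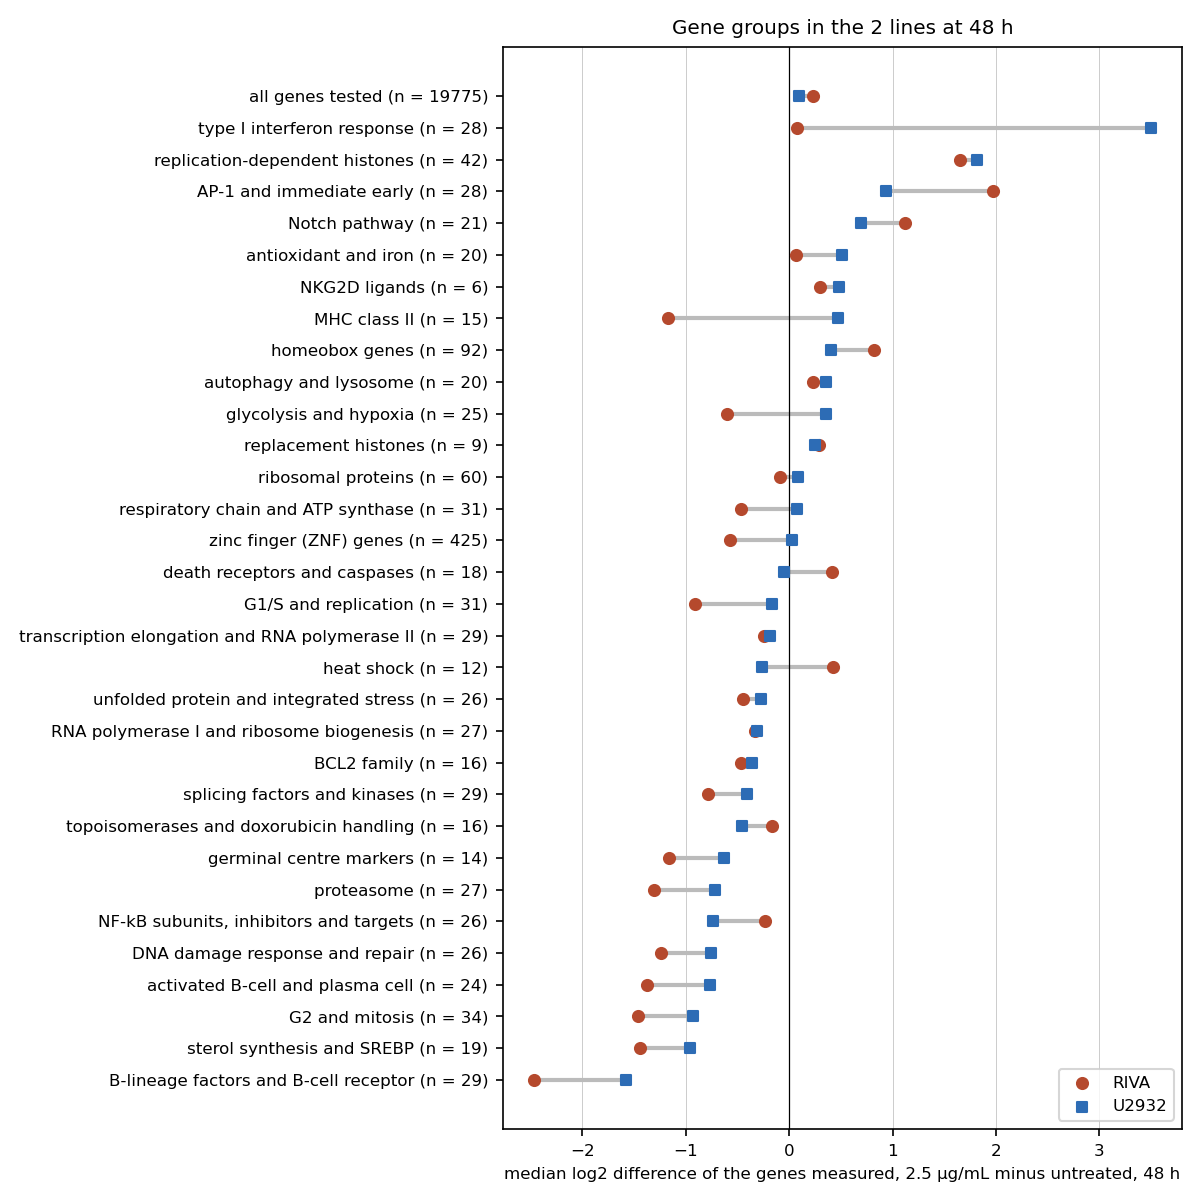
Median log2 difference (x axis) of the genes measured in each list, in RIVA (circles) and U2932 (squares), ordered by the U2932 value with all genes on top. B-lineage, sterol and mitosis genes lie lowest in both lines, histones lie high in both, and interferon-response genes lie at 0.08 in RIVA and 3.50 in U2932, on the deposited scale; on the poly-A scale every median is lower by 3.46 (RIVA) or 3.02 (U2932) and 1 list stays above 0 in U2932.

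The type I interferon response had the largest share of genes that differed between the lines among the lists. Interferons are secreted alarm proteins whose receptors activate STAT and IRF9 complexes. These bind the interferon-stimulated response element, whose core is a pair of GAAA copies set 2 bases apart, in front of antiviral genes. Of 28 such genes measured, 25 were called higher in U2932 and 0 lower, beside 8.12% and 11.9% of all genes. RIVA had 8 higher and 7 lower, beside 15.5% and 21.2% of all genes. The median difference was 0.08 in RIVA and 3.50 in U2932. By the test of the difference itself, 27 of the 28 differed between lines (96.4%, against 23.4% of all genes). Of them 26 were higher in U2932, beside 2875 of 4635 over all genes. The exception was HERC5, a ligase that attaches ISG15, which went from 4.31 to 8.51 in RIVA and from 3.12 to 4.14 in U2932. On the poly-A scale 17 of the 28 genes stayed above 0 in U2932 and 2 in RIVA, and on the hybridization scale 25 and 4. The share of all 19775 genes above 0 on these scales was not counted. By the stricter rule of a call and 2-fold, 47 of all genes were higher in U2932 and 91 in RIVA on the poly-A scale. On the hybridization scale they were 363 and 329.

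To show the element in genes on both sides of this contrast, the promoter stretch of 250 bases before to 50 after the start is given for 4 genes higher in U2932 against RIVA (IFI44L, ISG15, DDX60, IFIT5) and for HERC5, from RefSeq on GRCh38.p14. The stretches are IFI44L chr1:78620198-78620497 (plus strand), ISG15 chr1:1013247-1013546 (plus strand), DDX60 chr4:168318703-168319002 (minus strand), IFIT5 chr10:89414318-89414617 (plus strand) and HERC5 chr4:88456869-88457168 (plus strand). They are written 5′ to 3′ on the gene's strand, with the core on either strand (GAAA, 2 bases of any kind and GAAA, or TTTC, 2 bases and TTTC) in capitals. Overlapping matches run together. Of 35116 such stretches in the table, 1255 (3.57%) hold the core. Of the 28 genes, 22 matched with 31 starts, and 19 of these starts, in 15 genes, hold it. The stretches shown were picked only among genes with a single start and a match. CMPK2, XAF1 and OAS1, named below, have no match. A match is a string of letters and no evidence of binding.
IFI44L: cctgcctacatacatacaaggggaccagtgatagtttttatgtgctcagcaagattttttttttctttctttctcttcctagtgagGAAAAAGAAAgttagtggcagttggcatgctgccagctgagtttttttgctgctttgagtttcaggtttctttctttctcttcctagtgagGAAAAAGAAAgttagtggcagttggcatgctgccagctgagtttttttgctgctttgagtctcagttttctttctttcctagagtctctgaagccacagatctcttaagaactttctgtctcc
ISG15: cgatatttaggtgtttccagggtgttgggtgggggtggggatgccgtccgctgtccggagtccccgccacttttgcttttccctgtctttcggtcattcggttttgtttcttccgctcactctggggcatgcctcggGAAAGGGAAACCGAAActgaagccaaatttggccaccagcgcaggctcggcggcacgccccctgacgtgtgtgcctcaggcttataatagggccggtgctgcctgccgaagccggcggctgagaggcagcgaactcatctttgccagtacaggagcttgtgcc
DDX60: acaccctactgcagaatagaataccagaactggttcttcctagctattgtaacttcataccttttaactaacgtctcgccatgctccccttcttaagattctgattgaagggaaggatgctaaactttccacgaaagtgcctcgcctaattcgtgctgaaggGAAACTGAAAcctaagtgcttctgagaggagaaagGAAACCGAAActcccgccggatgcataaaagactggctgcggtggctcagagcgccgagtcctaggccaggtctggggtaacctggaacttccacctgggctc
IFIT5: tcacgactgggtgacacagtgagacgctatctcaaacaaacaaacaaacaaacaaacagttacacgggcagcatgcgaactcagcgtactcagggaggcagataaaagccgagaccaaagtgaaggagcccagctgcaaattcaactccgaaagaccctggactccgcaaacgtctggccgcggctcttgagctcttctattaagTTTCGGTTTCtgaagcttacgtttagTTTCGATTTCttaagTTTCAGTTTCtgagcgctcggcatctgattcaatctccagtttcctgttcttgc
HERC5: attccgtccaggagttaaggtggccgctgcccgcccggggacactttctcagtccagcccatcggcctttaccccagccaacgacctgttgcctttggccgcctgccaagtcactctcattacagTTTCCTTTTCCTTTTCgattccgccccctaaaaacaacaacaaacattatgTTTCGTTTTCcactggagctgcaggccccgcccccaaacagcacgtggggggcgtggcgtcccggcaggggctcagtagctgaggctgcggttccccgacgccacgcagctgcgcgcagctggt

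IFI44L, an interferon-induced antiviral gene with 2 matches above, went from 3.50 to 3.02 in RIVA and from 2.95 to 9.23 in U2932. MX1, a GTPase that blocks viral replication, went from 10.86 to 11.34 in RIVA and from 4.12 to 11.06 in U2932. The lines ended at nearly the same MX1 level but started far apart, with untreated RIVA already high. For MX1 the difference between lines was -6.46 ± 0.35 (SE; limma adjusted p = 6.12e-15), and for IFI44L it was -6.76 ± 0.37 (SE; limma adjusted p = 8.01e-15). CMPK2 (-0.03 and 6.13), DDX60 (0.18 and 6.14), IFIT1 (0.78 and 5.43), XAF1 (-0.20 and 4.80), IFI44 (-0.31 and 4.51) and RSAD2 (0.51 and 4.01) followed IFI44L: low in untreated cells of both lines and high in treated U2932 alone.

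A set of 6 moved in opposite directions. ISG15, the ubiquitin-like modifier whose promoter holds 2 overlapping matches, went from 9.75 to 8.63 in RIVA and from 6.39 to 11.81 in U2932. OAS1, which makes the activator of RNase L, went from 9.04 to 5.38 in RIVA and from 7.42 to 9.19 in U2932. IFIT5, with 3 matches, went from 7.74 to 5.48 in RIVA and from 4.23 to 7.0 in U2932. The rest of the set was OAS2 (-1.10 and 3.31), IFI35 (-1.16 and 2.37) and ISG20 (-1.84 and 1.33). The same held for SAMD9L (-2.27 and 2.83), SAMD9 (-1.93 and 2.06) and the TRAIL gene TNFSF10 (-2.82 and 2.08), which are not in the list. Of the 28 genes, 9 were at least 2-fold higher in untreated RIVA than in untreated U2932 and 0 were lower, while after treatment 21 were at least 2-fold higher in U2932 and 1 in RIVA. These counts compare single arrays without a test, and the share of all genes with such a gap was not counted. Over all genes the median size of the gap between lines was 0.34 untreated and 0.53 treated.

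Another set of 7 genes rose in both lines. IFI6 went from 5.76 to 10.18 in RIVA and from 6.29 to 11.88 in U2932, and IFI27, a mitochondrial interferon-induced protein, from 4.32 to 7.60 in RIVA and from 3.72 to 11.46 in U2932. IRF7, the factor that amplifies interferon transcription, went from 7.66 to 10.47 in RIVA and from 6.69 to 10.58 in U2932. USP18 (1.80 and 5.17), IFIT2 (1.53 and 3.54) and OASL (1.22 and 3.07) also rose in both, by more in U2932.

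The interferon genes themselves did not part in the same way. IFNB1, interferon beta, went from 3.51 to 6.42 in RIVA and from 3.34 to 6.63 in U2932. Its mean difference was 3.10 ± 0.36 (SE, n = 2 lines, limma adjusted p = 0.000655), and RIVA minus U2932 was -0.37 ± 0.35 (SE; limma adjusted p = 0.431). A p of this size does not show that the lines responded alike. IFNL2, an interferon of the lambda type, rose in RIVA alone, from 3.68 to 7.47 in RIVA and from 3.83 to 4.71 in U2932. IFNL1 did so by 1.56, against -0.11 in U2932. IRF3, which switches on IFNB1, rose in both (2.48 and 1.68) and its kinase TBK1 fell in both (-2.65 and -1.33). The receptor chain IFNAR1 (-1.47 and -0.29), the kinase JAK1 (-1.12 and 0.06) and the DNA sensor AIM2 (-3.58 and -0.53) were lower in RIVA alone. SOCS1, a brake on JAK signalling, went from 4.66 to 5.89 in RIVA and from 7.22 to 5.63 in U2932. In the list of 20 interferons, receptors and signalling genes, added after the values were seen, 2 rose (10%, against 5.22%) and 1 fell (5%, against 9.69%) in both lines and 8 differed between them (40%, against 23.4%). CXCL10, an interferon and NF-kB target, rose in both (3.11 and 4.91).

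**Figure D4:**
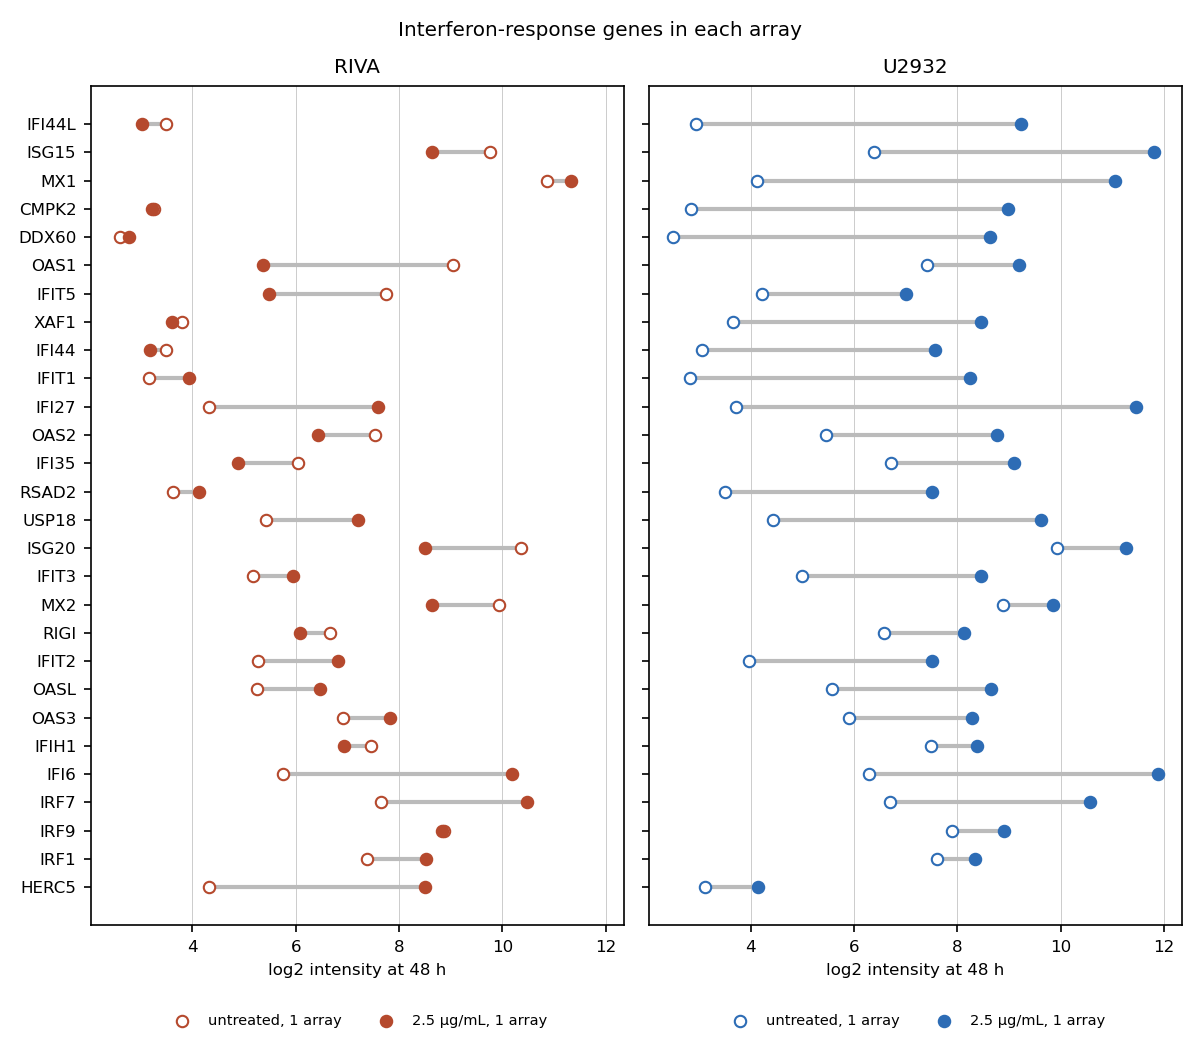
Log2 intensity in the 4 arrays (x axis) for the 28 interferon-response genes, ordered by the difference between lines; open circles are untreated, filled circles are 2.5 µg/mL, and each circle is 1 array. Filled circles lie right of open ones for all genes in U2932. In RIVA 7 genes, ISG15, OAS1 and IFIT5 among them, were called lower, beside 21.2% of all genes. MX1 is high in both RIVA arrays. On the poly-A scale every difference is lower by 3.46 (RIVA) or 3.02 (U2932).

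Opposite changes were rare. Only 23 genes (0.116%) were higher in RIVA and lower in U2932, and 41 (0.207%) the reverse. CD24, a surface glycoprotein of B-cell precursors, was the largest of the second kind and went from 12.18 to 9.63 in RIVA and from 3.61 to 7.65 in U2932. LHFPL6 led the first kind and went from 3.56 to 7.20 in RIVA and from 9.43 to 7.81 in U2932. In both genes the lines were far apart untreated and closer after treatment. HLA-DPB1, a chain of an MHC class II molecule, went from 8.64 to 6.33 in RIVA and from 10.47 to 12.24 in U2932. TNFRSF1B, the TNF receptor type II, went from 4.83 to 6.94 in RIVA and from 6.39 to 5.12 in U2932. The pro-death BCL2 relative HRK read -1.07 in RIVA and 2.34 in U2932. SYBU (1.53 and -2.44), RIOX2 (1.33 and -1.88), LOXL2 (1.28 and -2.27), NUFIP1 (1.32 and -1.40) and PPP1R2 (1.26 and -1.28) were higher in RIVA and lower in U2932, and ZNF93 (-1.53 and 1.72) the reverse. Among the first kind all probe sets of the gene shared both signs for 1 of the 6 named genes with several probe sets, and among the second for 7 of 8.

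MHC class II genes had a median of -1.17 in RIVA and 0.47 in U2932. CD74, the invariant chain, rose in both (2.80 and 1.99), and CIITA, the master coactivator, fell in both (-2.28 and -1.27), as did the promoter-binding subunit RFXAP (-5.22 and -2.58). These are values of 1 probe set per gene. For CIITA 1 of 3 probe sets fell in RIVA and 2 of 3 in U2932, and for RFXAP 1 of 2 and 2 of 2. HLA-DRA read 0.67 in RIVA and 1.09 in U2932, and HLA-DMA (-1.50 and 0.49), HLA-DOA (-1.17 and 0.81) and HLA-DOB (-2.85 and -0.21) were lower in RIVA alone. For HLA-DOB 1 of 2 probe sets fell in RIVA.

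RIVA alone had 925 genes higher (4.68%) and 1498 lower (7.58%) with a called difference between lines and a U2932 change under 2-fold. SDC4, a heparan sulfate proteoglycan, went from 4.74 to 11.77 in RIVA and from 4.95 to 5.90 in U2932. FAS, the death receptor, went from 3.50 to 8.05 in RIVA and from 8.02 to 7.67 in U2932, so that only the line that started low changed, by 4.90 ± 0.41 (SE; limma adjusted p = 3.68e-11) relative to the other. INHBB, a subunit of activin B, rose by 5.77 in RIVA, against 0.85 in U2932. SLC35D3 (6.78 and 0.93), AMDHD1 (5.86 and 0.61) and ATOH7 (5.57 and 0.9965, just under 2-fold in U2932) were the other largest rises. Among falls, CRBN, the cereblon subunit that lenalidomide binds, went from 9.10 to 4.14 in RIVA and from 8.75 to 8.48 in U2932. SMARCA1, a chromatin remodeller, went from 9.04 to 3.87 in RIVA and from 2.81 to 3.17 in U2932, where U2932 was already low. FAM3B (-5.49 and -0.88), ZSCAN16 (-4.50 and 0.18), ZNF253 (-4.05 and 0.81) and ZNF594 (-4.72 and -0.11) followed. The ZNF genes were split by chromosome after the values were seen. Of 208 on chromosome 19, 110 differed between lines (52.9%, against 23.4% of all genes). Of these 6 were higher in RIVA, beside 1760 of 4635 over all genes. Their median was -0.80 in RIVA and 0.08 in U2932. The 217 on other chromosomes had a median of -0.40 in RIVA and -0.05 in U2932 and 74 that differed (34.1%).

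U2932 alone had 211 genes higher (1.07%) and 201 lower (1.02%). Besides the interferon genes, ZNF595 went from 10.42 to 9.84 in RIVA and from 2.93 to 8.07 in U2932, and ABCB1, the efflux pump that exports doxorubicin, went from 2.83 to 3.20 in RIVA and from 3.35 to 5.66 in U2932. The ABCB1 level was below the median gene in all 4 arrays, and RIVA minus U2932 was -1.94 ± 0.43 (SE; limma adjusted p = 0.000487). PDZRN4 went from 3.08 to 2.82 in RIVA and from 9.48 to 3.74 in U2932. PDZRN3 (0.73 and -3.30), SYT13 (0.98 and -2.66), PLCB1 (0.22 and -3.24), DEPTOR (0.46 and -2.81) and FAM167A-AS1 (0.74 and -4.20) also fell in U2932 alone, and each was low in untreated RIVA. CBR1, which reduces doxorubicin to its alcohol, fell in U2932 (from 3.48 to 3.63 in RIVA and from 8.33 to 5.46 in U2932). BCL2A1, an anti-death NF-kB target, went from 9.90 to 9.09 in RIVA and from 12.64 to 9.58 in U2932. All probe sets of the gene shared the sign in both lines for 0 of the 2 named U2932 rises with several probe sets and 2 of 4 U2932 falls. For RIVA rises it was 2 of 2 and for RIVA falls 2 of 4. This count includes the line without a call. The U2932 rise itself was shared by 2 of 2 probe sets for ZNF595 and 3 of 3 for XAF1. In RIVA 1 of 2 and 1 of 3 shared the sign. For DEPTOR 2 of 2 fell in U2932.

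In the BCL2 family MCL1 (-1.27 and -1.04) and BAK1 (-1.44 and -1.47) fell in both lines, while BCL2 read -0.50 in RIVA and -0.55 in U2932. GAPDH, often used as a reference gene, read -0.65 in RIVA and -0.12 in U2932.

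Much of the 48 h pattern was present at 12 h. Of the 1032 agreeing rises, 502 were at least 2-fold higher at 12 h in both lines and 249 under 2-fold in both; of the 1916 falls, 1198 and 324. The 2 times have separate untreated arrays. The difference from untreated was higher at 48 h than at 12 h by at least 2-fold in both lines for 163 genes (0.824%), and lower for 245 genes (1.24%). This includes genes whose early change had receded by 48 h. FERRY3, for example, read -3.18 in RIVA and -2.35 in U2932 at 12 h and -0.55 and 0.08 at 48 h. SERPINB5 was 2.60 in RIVA and 2.49 in U2932 above untreated at 12 h and 7.28 and 6.78 at 48 h. SCARNA17, another Cajal body RNA, also read only in its tailed form, went from 0.93 and 2.86 at 12 h to 4.58 and 6.04. The growth factor antagonist LEFTY1 (5.24 and 4.02 at 48 h), GADD45G (5.31 and 2.99) and FAM90A1 (5.35 and 3.55) were late in the same way. Late falls included CORO1A, an actin regulator of leukocytes, from -0.59 and -0.76 to -3.19 and -2.83, LRBA, a vesicle trafficking protein, from -0.04 and 0.09 to -3.59 and -2.14, and the deacetylase HDAC8, from -0.13 and -0.45 to -2.78 and -2.49.

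The medians of some groups at 12 h stood apart between lines. Histone genes had a median difference of 0.00 in RIVA and 1.17 in U2932 at 12 h. Of the 42, 30 were called at least 2-fold higher at 48 than at 12 h in RIVA, against 5 in U2932. Over all 19775 genes the same rule gave 1480 in RIVA and 620 in U2932. Interferon-response genes were at 0.13 and 1.08 at 12 h, and 24 of 28 were at least 2-fold higher at 48 than at 12 h in U2932 and 4 in RIVA. MX1 in U2932 stood 0.35 above untreated at 2 h, 2.12 at 12 h and 6.94 at 48 h. Proteasome genes were near untreated at 12 h (-0.26 and -0.04) and lower at 48 h. Mitosis genes were already low at 12 h (-1.51 and -1.35, medians). A test of the difference between lines in this change was not made.

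**Figure D5:**
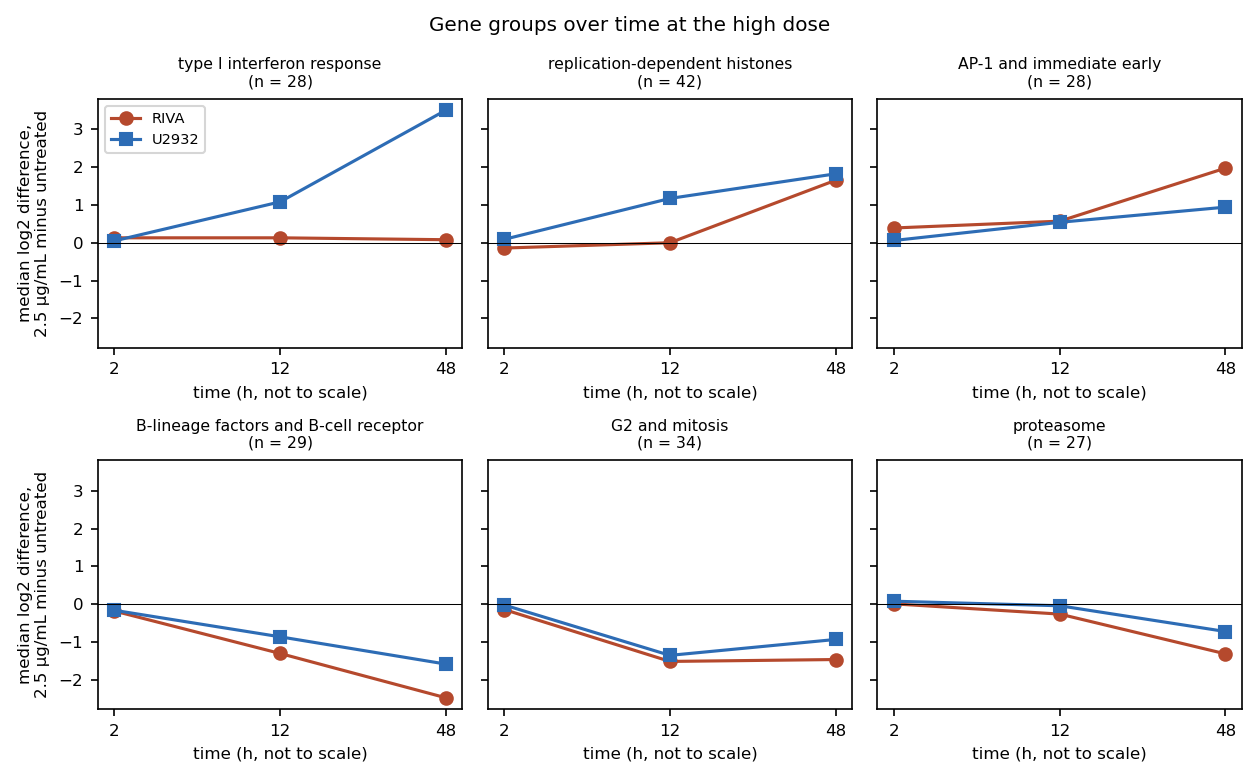
Median log2 difference from the untreated array of the same time (y axis) for 6 gene lists at 2, 12 and 48 h (x axis, not to scale) at 2.5 µg/mL in RIVA (circles) and U2932 (squares). The interferon-response median climbs to 3.50 in U2932 and stays near 0 in RIVA, and the histone median reaches 1.65 in RIVA only by 48 h, on the deposited scale; on the poly-A scale the 48 h values are lower by 3.46 and 3.02.

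The low dose at 48 h, set against the same untreated arrays and therefore sharing them, gave 0 called genes in each line with the same limma error. At an unadjusted p below 0.05 there were 579 genes in RIVA and 606 in U2932. MX1 read -0.02 in RIVA and -0.09 in U2932, SERPINB5 -0.26 and 0.30, and CD79B 0.01 and 0.16. The SD over genes of the low-dose difference was 0.19 in RIVA and 0.20 in U2932.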

How the data were processed

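The 4 arrays compared, and the other arrays used for the error, were described by the labels' dose, time and line. The authors deposited log2 intensities. The submitters' processing notes name RMA, affy and R 3.0.2. RMA corrects background, makes the distributions of all arrays equal and summarises probe sets, so that a change shared by most genes is removed and a difference is relative to the bulk of genes. Precision is limited by how many arrays there are. Only probe sets that list a single gene entered, and each gene took its brightest one, by the mean of the 49 arrays. Symbols were updated through RefSeq GRCh38.p14.

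Tests used limma 3.58.1, run in R 4.3.3 with the data.table package at version 1.17.8. The mean of both lines was fitted over the 4 arrays with the line as a block, which the labels give as the pairing (same cell line), leaving 1 residual degree of freedom. The error of a line's own difference, of the difference between lines and of the change from 12 to 48 h came from 30 arrays of all 6 lines (untreated at 0, 2 and 12 h and low dose at 2 and 12 h), fitted with line and group, with 20 residual degrees of freedom. Benjamini-Hochberg adjustment ran over all 19775 genes. Calls needed an adjusted p under 0.05 and, except for the mean of both lines, a log2 difference of at least 1. Genes called in both lines agree or are opposite. Genes called in 1 line, with a called difference between lines and under 2-fold in the other line, are given to that line alone. The other line may still have changed by less than 2-fold. Each line is 1 culture here, so that no p measures repeated high-dose cultures. The fits were tested on simulated data.

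The members and gene lists were chosen with earlier results of these data known. Named genes had a level above that of the median gene in their higher group and a symbol that is neither a LOC nor an orf name. They were the 12 largest agreeing rises and falls by the smaller of both differences, 8 largest opposite per direction, 6 largest per line and direction, 8 largest changes from 12 to 48 h per direction, up to 4 agreeing and 3 differing members per list, and single genes of drug handling and B cells. One list and some genes are not reported here, and list members outside the rule were named after their values were seen. Alternatives were other scalings, controls, errors, filters and probe sets.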

Additional observations from a re-analysis of the deposited data

Results flagged for a closer look

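The responses of the 2 lines differed by the limma test of the difference itself for the genes below, and the values in brackets are the log2 difference in RIVA minus that in U2932. Genes that rose in RIVA and fell in U2932 were LHFPL6 (5.26), SYBU (3.97), RIOX2 (3.21), NUFIP1 (2.72), TNFRSF1B (3.39), LOXL2 (3.55), PPP1R2 (2.54) and SOCS1 (2.83). The reverse held for CD24 (-6.60), SAMD9L (-5.09), IFIT5 (-5.03), TNFSF10 (-4.90), SAMD9 (-3.99), OAS1 (-5.43), HLA-DPB1 (-4.08), ZNF93 (-3.26) and HRK (-3.40). Higher in RIVA alone were SDC4 (6.07), SLC35D3 (5.84), AMDHD1 (5.25), INHBB (4.91), FAS (4.90), ATOH7 (4.57), TNF (2.13) and IFNL2 (2.91). Lower in RIVA alone were SMARCA1 (-5.52), ZNF253 (-4.86), CRBN (-4.70), ZSCAN16 (-4.68), FAM3B (-4.62), ZNF594 (-4.61), CDC6 (-2.60), ASNS (-2.99), RGS13 (-3.04), JCHAIN (-3.00), UQCRC1 (-2.34), PSMB6 (-1.24), EPCAM (-2.45), AIM2 (-3.05) and NLRC5 (-2.37). Higher in U2932 alone were IFI44L (-6.76), MX1 (-6.46), CMPK2 (-6.15), ZNF595 (-5.72), XAF1 (-5.00), IFIT1 (-4.65), SHOX2 (-3.49) and CD8A (-1.52), and lower in U2932 alone PDZRN4 (5.47), FAM167A-AS1 (4.94), PDZRN3 (4.03), SYT13 (3.64), PLCB1 (3.46), DEPTOR (3.26) and CBR1 (3.03).

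Genes that rose in both lines by unequal amounts were H3C1 (2.62), FOSB (3.73), BAG3 (2.18), POLR2A (2.61), ULBP2 (2.14), HES1 (2.76), CD14 (2.91), FAP (2.94) and ID1 (6.0), all larger in RIVA. Falls of unequal size were those of BARD1 (-1.99), BUB1B (-2.70), RRP1B (-2.13), PRP4K (-4.13), INSIG2 (-2.5), BNIP3 (-3.47), ATG3 (-2.43) and CD79B (-2.41), all deeper in RIVA. HMOX1, the heme oxygenase gene, reached 2-fold in neither line and still differed (-1.12).

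Control probe sets, which measure no gene of the cells and entered only as a scaling alternative, read higher in the treated arrays. The poly-A controls were higher by 3.46 in RIVA and 3.02 in U2932, and the hybridization controls by 1.92 and 0.99. The distance between 3′ and 5′ probe sets grew by 1.05 for ACTB and 0.39 for GAPDH in RIVA, and by 0.39 and 0.10 in U2932. For GAPDH it was 0.60 in treated RIVA and 0.15 in treated U2932, against at most 0.41 in the 36 arrays without the high dose. The part of this distance in the larger changes of RIVA was not tested.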

How the results depend on the processing

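Of 160 alternative counts for 14 results, 121 stayed within 1.5 times the reported count. Among the 160 are fits that left 1 line out of the spread. They change no log2 difference and could hardly move a count, so that the 121 overstates how stable the results are. For the mean of both lines (1119 higher and 1638 lower), the poly-A scale gave 27 and 19237, the hybridization scale 115 and 5294, variances without a trend 9 and 0, no replicate block 0 and 0, and the error from arrays without the high dose 7459 and 5766; with medians centred 2723 were lower and over all probe sets 3043. With either line left out, the other line's 1 treated array was compared using the error of the 30 arrays without the high dose, which is not the paired fit, and gave 4456 to 7057 higher and 4572 to 5780 lower. The poly-A scale gave 91 higher and 19307 lower in RIVA, 47 and 19422 in U2932, and 21 and 19126 agreeing genes. The hybridization scale gave 329 and 16277, 363 and 8302, and 141 and 7925, with 8912 genes that differed between lines. Over all probe sets there were 5200 higher and 8299 lower in RIVA, 2711 and 5021 in U2932, 1682 and 3812 agreeing, 8649 differing and 119 opposite. Among genes above the median level 1622 were higher in RIVA and 41 opposite. The larger counts over all probe sets come from more features tested; the cause of the other moves was not tested. Pairing by line comes from the labels, and the fit without the block was made for the mean of both lines.

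With the low dose or the mean of 4 untreated arrays as control, medians centred, or the spread of RIVA and U2932 only, 250 named genes gave 1000 values, of which 998 kept their sign and call. Those that lost the call, with the mean of 4 untreated arrays as control, were H2BC12L (mean 1.09) and DNAJA1 (RIVA minus U2932 0.29). Most named genes were picked for large changes, and a changed spread leaves every log2 difference as it was. Few losses could therefore occur, and the count is no measure of robustness. The scalings to the controls and the fits without the trend or the block, which moved the counts above, were not among these settings. No result measures the spread between repeated high-dose cultures, and 2 lines do not stand for lymphoma lines in general.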
